A study of Mus musculus with 5 samples.

Results

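The genes described here are 36 that carry glucose to pyruvate and lactate: glucose and lactate transporters, the enzymes of glycolysis, the subunits and kinases of pyruvate dehydrogenase, and cytosolic malate dehydrogenase. They were taken from a list of gene names that was drawn up with earlier results of these data known. All 36 were found among the 13486 genes with a tag in at least 1 of 5 libraries. The AVC held 36 of them, the OFT 35, the atria 29, the ventricles 30 and the *Twist1* null AVC 35, and 28 were found in every library.

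The data are Tag-seq libraries of mouse heart tissue at embryonic day 10.5. Wild-type hearts, labelled C57BL/6 and from matings of C57BL/6J females, were divided into the atrio-ventricular canal (AVC), the outflow tract (OFT), the atria and the ventricles. The AVC and the OFT both form the endocardial cushions, and 1 library was made from each part. The fifth library came from the AVC of *Twist1* knockout embryos on an ICR background, here the *Twist1* null AVC. The knockout lacks *Twist1* in every cell of the embryo, tissue of several embryos was pooled for each library, and genotype and strain differ together, so that they cannot be told apart.

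In Tag-seq, cDNA bound by its poly(A) end is cut by the enzyme NlaIII at CATG, and the 17 bases after the site are read. Each distinct sequence is a tag type, listed with its count. Levels are given as TPM, the tags of a gene for every 1000000 deposited tags of the library. A transcript gives about 1 tag whatever its length, so TPM can be set side by side between genes, within the limits of how well each tag is read. The deposited tags numbered 6075421 (AVC), 5267618 (OFT), 4666514 (atria), 4223810 (ventricles) and 12977237 (null). The lowest level that 1 listed tag type could have was 0.988, 1.14, 1.29, 1.42 and 0.462 TPM in this order, so a level of 0 means that no tag type passed this limit. There is no replicate of any group. Intervals of 95% cover counting error only, and each test compares libraries, not conditions.

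Glycolysis splits glucose into pyruvate in the cytosol. Hexokinase, phosphofructokinase and pyruvate kinase catalyse its committed steps, and lactate dehydrogenase turns pyruvate into lactate, which monocarboxylate transporters carry out of the cell. Pyruvate dehydrogenase passes pyruvate to the citric acid cycle instead, and its kinases switch it off. The early embryonic heart is known to rely on glycolysis to a large degree, and hypoxia-inducible factor (HIF) is known to raise the transcription of many of these genes.

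The targeted gene was checked first. *Twist1* was at 918 TPM (AVC), 299 (OFT), 63.4 (atria), 55.9 (ventricles) and 4.55 (null). It was lowest in the library labelled as null and highest in the wild-type AVC.

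The results turn on few tag types, since most members were read mainly through 1 or 2 sequences. Those of the most abundant members, and pairs from genes whose tags moved in opposite directions, are shown with the NlaIII site in capitals. The base that follows the capitals is the first base read after the site.
Ldha: CATGccaaataaaaccttgaa
Pgk1: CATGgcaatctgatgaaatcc
Tpi1: CATGtaagggaaataaacacc
Pkm: CATGcaatagagaccagctat
Aldoa: CATGcctactaaccagagctg
Slc2a1: CATGagaaggacctcggaggc
Pgam1, tag 1: CATGttccagctgcttgaccc
Pgam1, tag 2: CATGgtgatttttaaccctaa
Mdh1, tag 1: CATGttgttagtgctgcaatc
Mdh1, tag 2: CATGcatcatctttgtgtgtt
Pdha1, tag 1: CATGtgctgtgaaaaggaaac
Pdha1, tag 2: CATGaaaacaaccctaagctg

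These sequences were matched to GENCODE M21 transcripts (build GRCm38). The *Ldha* tag lies at chr7:46855601-46855621 on the plus strand, in the 3′ UTR (exon 8), with its site 27 bases from the transcript end. The *Pgk1* tag lies at chrX:106203617-106203637 on the plus strand, in the 3′ UTR (exon 11), 83 bases from the end. The *Tpi1* tag lies at chr6:124810724-124810744 on the minus strand, in the 3′ UTR (exon 7), 159 bases from the end. These 3 tags gave most of the tags of their genes. The *Pkm* tag is at chr9:59678980-59679000 (plus, 3′ UTR, exon 11) and the *Aldoa* tag at chr7:126795410-126795430 (minus, coding part of exon 9). The *Slc2a1* tag is at chr4:119137116-119137136 (plus, 3′ UTR, exon 10). The tags of *Pgam1* are at chr19:41918558-41918578 and chr19:41918235-41918255 (plus), those of *Mdh1* at chr11:21557268-21557288 and chr11:21556824-21556844 (minus), and those of *Pdha1* at chrX:160122240-160122260 and chrX:160122629-160122649 (minus), all in the 3′ UTR of the last exon.

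Taken over all 36 genes, by tags of 1 gene, the members made up 0.946% (AVC), 0.895% (OFT), 1.25% (atria), 2.09% (ventricles) and 2.57% (null) of all tags. These shares leave out the main tags of *Gapdh* and *Eno1*, which are shared with near-identical copies. The *Gapdh* one was at 4528 TPM (AVC) and 1932 (null), the *Eno1* one at 298 and 2648. The cushion regions thus gave the smallest shares and the *Twist1* null AVC the largest. The step from glyceraldehyde phosphate to pyruvate (8 genes) and the lactate genes (4 genes) made up most of each total. In the AVC these groups held 0.266% and 0.246% of tags, in the ventricles 0.779% and 0.898%, and in the *Twist1* null AVC 0.860% and 0.682%. The 3 glucose transporters ran the other way among the wild-type regions, with 0.149% in the AVC and 0.0455% in the ventricles.

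**Figure D1:**
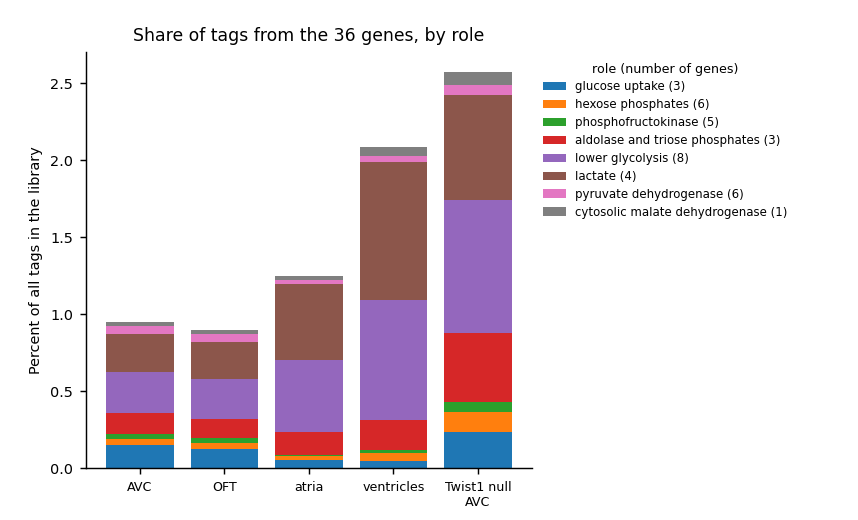
Share of all tags in each library (percent, vertical axis) that came from the 36 genes, by tags of 1 gene. Bars, 1 per library, are stacked by the role of the gene. The bar of the Twist1 null AVC reaches 2.57% and that of the wild-type AVC 0.946%, and the lower glycolysis and lactate genes make up most of each bar.

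Glucose uptake was read mainly from *Slc2a1*, which encodes GLUT1, the transporter of most embryonic cells. *Slc2a1* was at 1356 TPM (AVC), 1066 (OFT), 518 (atria), 440 (ventricles) and 2107 (null). *Slc2a3*, which encodes the high-affinity transporter GLUT3, was at 126, 181, 20.1, 15.4 and 220 TPM in the same order, which is kept below. Both were higher in the AVC, the OFT and the null than in either chamber. *Slc2a4*, for the insulin-responsive GLUT4 of adult muscle, was near the limit at 4.44, 6.45 and 5.47 TPM in the AVC, OFT and null, and was at 0 in both chambers.

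Of the hexokinases, which trap glucose as glucose-6-phosphate, *Hk1* was at 124, 88.7, 49.1, 161 and 119 TPM. *Hk2*, the form known to be inducible, was at 39.3 TPM (AVC), 48.4 (OFT), 0 (atria), 5.45 (ventricles) and 228 (null). The ratio of *Hk1* to *Hk2* tags was 3.16 for the AVC (interval 2.73 to 3.67), 1.83 for the OFT (1.57 to 2.14), 29.5 in the ventricles (19.5 to 46.9) and 0.523 in the null (0.491 to 0.556). The null was the only library with more *Hk2* than *Hk1* tags. This rests on tags with thymine as the first base after the site, which were most of the *Hk2* tags and few of the *Hk1* tags, and without them the ratio was 22.7 for the AVC (16.0 to 33.2) and 18.7 in the null (14.97 to 23.7). *Adpgk*, an ADP-dependent glucokinase, was at 11.4, 16.1, 3.64, 16.8 and 46.6 TPM. *Gpi1*, which converts glucose-6-phosphate to fructose-6-phosphate, was at 136, 156, 86.4, 142 and 816 TPM, and so was far more abundant in the null than in any wild-type region. The phosphoglucomutases link glycogen to this step. *Pgm1*, here the gene on chromosome 4, was at 67.8, 79.7, 73.9, 210 and 79.0 TPM, highest in the ventricles, and *Pgm2*, on chromosome 5, lay between 3.00 and 8.72 TPM in all 5 libraries.

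Phosphofructokinase is encoded by 3 genes. *Pfkl*, the liver form, was at 104, 103, 37.7, 69.4 and 104 TPM. *Pfkm*, the muscle form, was at 67.2, 44.4, 6.21, 8.29 and 14.1 TPM, and *Pfkp*, the platelet form, at 158, 112, 34.1, 83.6 and 452 TPM. *Pfkp* gave the most tags of the 3 in the AVC, the OFT, the ventricles and the null, while in the atria *Pfkl* gave slightly more. The ratio of *Pfkp* to *Pfkm* tags was 2.36 for the AVC (2.10 to 2.65), 2.51 for the OFT (2.16 to 2.94), 5.48 in the atria (3.67 to 8.45), 10.1 in the ventricles (7.12 to 14.7) and 32.0 in the null (27.6 to 37.3). Most *Pfkp* tags also start with thymine, and without such tags the ratio was 0.321 for the AVC (0.262 to 0.392) and 1.56 in the null (1.29 to 1.89). *Pfkl* then gave more tags than *Pfkp* in every library, with 634 and 131 in the AVC and 1341 and 286 in the null. Enzymes of the *Pfkfb* family make the activator fructose-2,6-bisphosphate. *Pfkfb3*, the form known for its strong kinase activity, was at 21.1, 20.5, 2.79, 10.7 and 71.4 TPM. *Pfkfb2*, the heart form, was at 8.72, 1.52 and 18.8 TPM in the AVC, OFT and null and at 0 in both chambers.

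Aldolase splits the 6-carbon sugar. *Aldoa*, the muscle and embryonic form, was at 1166 TPM (AVC), 982 (OFT), 202 (atria), 287 (ventricles) and 570 (null). *Aldoc*, the brain form, was at 6.91, 2.47 and 21.9 TPM in the AVC, OFT and null and at 0 in the chambers. *Tpi1*, triose phosphate isomerase, followed another order with 196 TPM (AVC), 263 (OFT), 1320 (atria), 1675 (ventricles) and 3923 (null). *Aldoa* was thus highest in the wild-type AVC and *Tpi1* lowest there. Nearly all *Tpi1* tags start with thymine, and without such tags *Tpi1* was at 18.9 (AVC), 12.9 (atria) and 11.9 (ventricles) TPM of the lowered total, so that the AVC was no longer lowest.

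In lower glycolysis *Pgk1*, phosphoglycerate kinase, was at 1029 TPM (AVC), 1089 (OFT), 3920 (atria), 6339 (ventricles) and 5514 (null). *Pgam1*, the general phosphoglycerate mutase, was at 286, 265, 370, 640 and 902 TPM, and *Pgam2*, the muscle form, at 197, 204, 176, 279 and 196 TPM. *Pgam2* thus varied less across the libraries than *Pgam1*, and the ratio of *Pgam1* to *Pgam2* tags was 1.45 in the AVC (1.35 to 1.56) and 4.60 in the null (4.41 to 4.80). Without tags that start with thymine, which gave most of *Pgam1* and none of *Pgam2*, the order turned, with 0.185 in the AVC (0.160 to 0.214) and 0.123 in the null (0.109 to 0.138). *Eno3*, the muscle enolase, was at 170, 197, 62.6, 103 and 47.5 TPM. *Eno2*, the neuronal enolase, was at 4.44 TPM (AVC), 3.99 (OFT) and 31.3 (null) and at 0 in the chambers. *Eno3* thus gave 38.3 times the *Eno2* tags in the AVC (26.1 to 58.3) and 1.52 times in the null (1.34 to 1.72), and 60.8 times (37.8 to 104.7) and 2.92 times (2.49 to 3.43) without tags that start with thymine. *Pkm*, pyruvate kinase of muscle and embryo, was at 880, 790, 140, 424 and 1811 TPM. Its M1 and M2 splice forms were not separated here.

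*Gapdh* and *Eno1* could be read only in part, because their main tags also occur in near-identical copies. The tags of *Gapdh* alone gave 86.6, 60.2, 3.21, 3.08 and 96.6 TPM, nearly all from 1 coding tag that also lies in processed pseudogenes. The tags of *Eno1* alone gave 2.14 TPM in the AVC and none elsewhere. They are 13 copies of 1 coding tag type, which also lies in other GENCODE genes outside the transcripts linked to RefSeq. The shared main tags are shown because they carry most of the reads.
Gapdh, shared with Gm10364 and Gm5177: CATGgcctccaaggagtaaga
Eno1, shared with Eno1b: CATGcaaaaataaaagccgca

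The shared *Gapdh* tag (chr6:125162030-125162050, minus strand, coding part of exon 7) was at 4528 TPM (AVC), 3360 (OFT), 3063 (atria), 4062 (ventricles) and 1932 (null), where it was lowest. The shared *Eno1* tag (chr4:150248845-150248865, plus strand, 3′ UTR, exon 12) was at 298, 370, 2292, 3535 and 2648 TPM. As for *Pgk1* and *Ldha*, the AVC and the OFT were low and the other 3 libraries high, with the ventricles highest. Levels of both genes below are those of their own tags unless the copies are named.

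*Ldha*, the lactate dehydrogenase subunit that favours lactate formation, was the most abundant member by tags of 1 gene in all 5 libraries, with 2096 TPM (AVC), 2084 (OFT), 4715 (atria), 8570 (ventricles) and 6098 (null). *Ldhb*, the subunit typical of the adult heart, was at 249 TPM (AVC), 141 (OFT), 175 (atria), 395 (ventricles) and 626 (null). The ratio of *Ldha* to *Ldhb* tags was 8.41 for the AVC (7.97 to 8.88), 14.8 for the OFT (13.7 to 16.0), 26.9 in the atria (25.1 to 28.9), 21.7 in the ventricles (20.6 to 22.8) and 9.73 in the null (9.51 to 9.96). *Ldha* exceeded *Ldhb* in each library, least so in the AVC and the null. Nearly all *Ldhb* tags start with thymine and few of *Ldha* do, and without such tags *Ldhb* was left with 24 tags in the AVC, 39 in the null and none elsewhere, so these ratios set tags with and without thymine first against each other. *Slc16a1* and *Slc16a3* encode the lactate transporters MCT1 and MCT4. *Slc16a1* was at 42.8, 47.3, 29.8, 17.8 and 52.3 TPM. *Slc16a3* was at 71.6 TPM (AVC), 99.7 (OFT), 3.21 (atria), 0 (ventricles) and 39.8 (null), so that it exceeded *Slc16a1* in the wild-type AVC and OFT only.

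Among the pyruvate dehydrogenase genes *Pdha1*, the catalytic alpha subunit, was at 104.8, 172, 119, 151 and 340 TPM. *Pdhb*, the beta subunit, was at 47.7, 88.7, 11.1, 29.4 and 28.5 TPM, and *Dlat*, the acetyltransferase core, at 44.9, 46.9, 27.0, 39.5 and 58.7 TPM. *Pdhb* was highest in the OFT and *Pdha1* and *Dlat* in the null. Without tags that start with thymine *Pdha1* too was highest in the OFT, at 83.5 TPM of the lowered total, and lowest in the null, at 7.06 TPM. The inhibitory kinases *Pdk1* and *Pdk3* were at 125, 92.8, 22.7, 32.4 and 60.9 TPM and at 182, 176, 71.1, 95.6 and 164 TPM. *Pdk2* was at 6.91, 6.83 and 7.63 TPM in the AVC, OFT and null, at 1.42 TPM in the ventricles and at 0 in the atria. *Mdh1*, which regenerates NAD in the cytosol as part of the malate-aspartate shuttle, was at 230, 210, 286, 601 and 872 TPM.

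**Figure D2:**
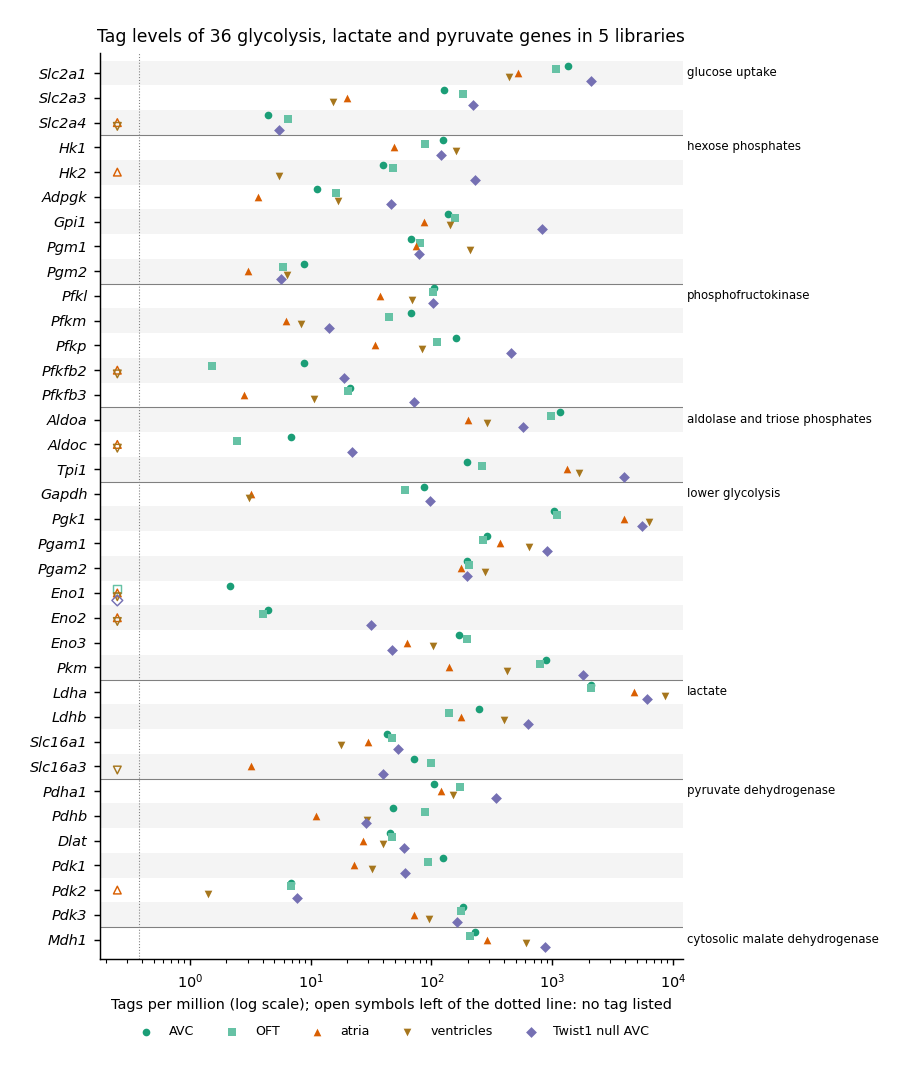
Level of each of the 36 genes (rows, grouped by role) in the 5 libraries (symbols), in TPM on a log axis, from tags of 1 gene, with open symbols left of the dotted line where no tag was listed. Ldha, Pgk1 and Tpi1 sit far right in the atria, the ventricles and the null and lower in the AVC and the OFT, while Aldoa, Slc2a1 and Slc16a3 are lower in the chambers than in the AVC.

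The *Twist1* null AVC was compared with the wild-type AVC to ask what changes in this tissue without *Twist1*. Of the 36 members 13 were higher in the null and 3 lower, at an unadjusted p under 0.05 in the two-sided exact test of edgeR with the dispersion of 0.12 that the study used. Over all 12963 genes tested 11.9% were higher and 12.7% lower by the same rule. The median log2 ratio was 0.64 over the 35 members with a tag in both libraries and −0.23 over all genes. The genes called higher were spread over the pathway: 3 of 6 in the hexose phosphate group, 2 of 5 around phosphofructokinase, 2 of 3 at aldolase and triose phosphates, 3 of 8 in lower glycolysis, 1 of 4 lactate genes, 1 of 6 pyruvate dehydrogenase genes, and *Mdh1*. None of the 3 glucose transporters was called.

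*Tpi1* had the largest ratio, at 19.996-fold higher in the null (interval 18.9 to 21.2, exact p = 1.42e-07). *Eno2* was 7.04-fold higher (4.77 to 10.8, exact p = 0.000547), *Gpi1* 6.01-fold (5.60 to 6.46, exact p = 0.000680) and *Hk2* 5.78-fold (5.07 to 6.63, exact p = 0.000914). *Pgk1* was 5.36-fold higher (5.22 to 5.50, exact p = 0.00135). These 5 act between the trapping of glucose and the enolase step. The other 8 were between 2.85-fold and 4.10-fold higher: *Adpgk* (4.10), *Mdh1* (3.79), *Pfkfb3* (3.39), *Pdha1* (3.24), *Aldoc* (3.17), *Pgam1* (3.15), *Ldha* (2.91) and *Pfkp* (2.85). *Ldha* passed narrowly with an exact p of 0.0357.

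*Pfkm* was lower in the null, at 0.210 times its wild-type level (0.175 to 0.251, exact p = 0.00308), and so was *Eno3*, at 0.279 times (0.252 to 0.309, exact p = 0.0134). Both are the muscle forms of their enzymes. *Pgam2*, also a muscle form, was at 0.994 times (0.927 to 1.07). *Eno1* was called lower from its own tags, at least 5.55-fold with 5 tags assumed for the missing tag type, but with the tags it shares with *Eno1b* it was 8.91-fold higher (exact p = 5.07e-05). With tags shared with near-identical copies counted, 14 members were higher and 2 lower, where 1540 and 1647 of 12964 genes were.

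Several abundant members were not called. *Aldoa* was at 0.489 times its wild-type level (exact p = 0.155), *Pkm* at 2.06 times (exact p = 0.151), *Ldhb* at 2.51 times (exact p = 0.0688) and *Slc2a1* at 1.55 times (exact p = 0.377). The kinase *Pdk1* was at 0.488 times (exact p = 0.156). With the shared tags counted, *Gapdh* was at 0.476 times (exact p = 0.140). Differences of this size lie within the variation that the fixed dispersion allows between libraries.

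**Figure D3:**
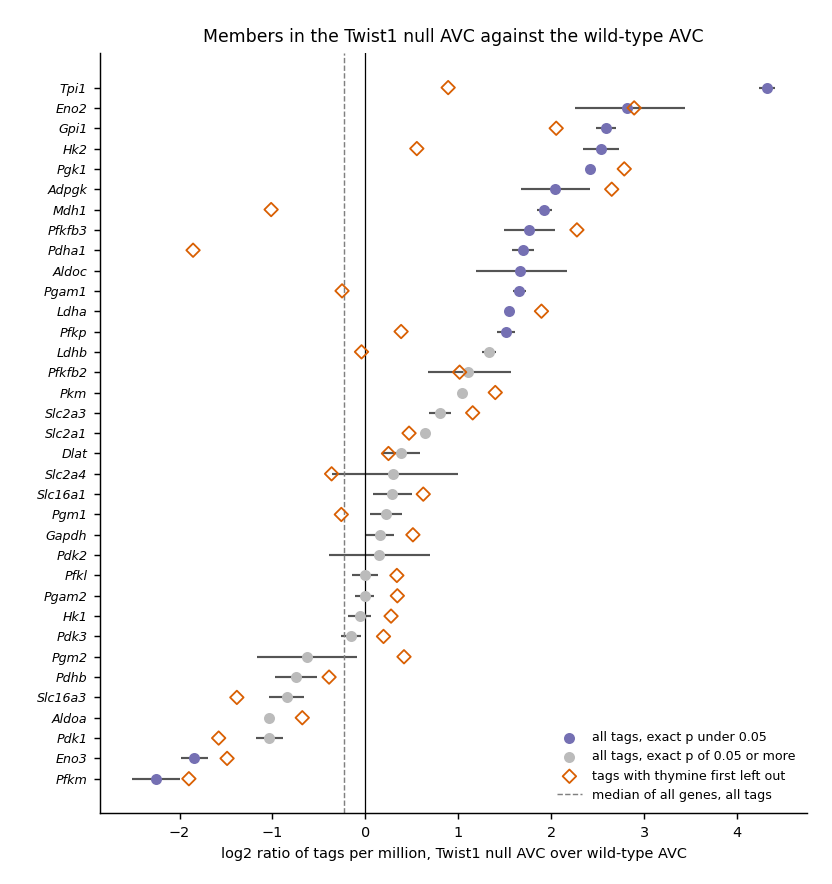
Log2 ratio of the Twist1 null AVC to the wild-type AVC for the 35 members with a tag in both libraries (circles with 95% counting intervals, purple where the exact p is under 0.05), and the same ratio with tags whose first base is thymine left out (open diamonds). Tpi1 is farthest right at 4.32 with all tags, the diamonds of Mdh1, Pdha1 and Pgam1 lie left of 0, and Pgk1, Ldha and Gpi1 stay right of it. The dashed line marks the median of all genes at −0.23.

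The 2 AVC libraries also differed in which tag sequences they held. Tags with thymine as the first base after the site (t after the capitals above) made up 13.6% of tags (AVC), 14.98% (OFT), 32.1% (atria), 22.2% (ventricles) and 32.4% (null). Over all tag types of 1 gene with at least 50 tags in each AVC library, the median log2 ratio of null to wild type was 0.56 for the 2291 that start with thymine and −0.72 for the 6989 that do not. For the members it was 1.71 over 15 tag types that start with thymine and −0.19 over 29 that do not.

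This split ran within single genes. Tag 1 of *Mdh1*, with thymine first, went from 203 TPM in the AVC to 861 in the null, while tag 2 of the same transcript went from 19.3 to 9.17 TPM. Tag 1 of *Pgam1* went from 246 to 854 TPM and tag 2 from 32.3 to 8.01 TPM. Tag 1 of *Pdha1* went from 82.8 to 334 TPM and tag 2 from 19.3 to 4.08 TPM. In these 3 genes the tag with thymine first was higher in the null and the other lower, and the gene was called in the direction of its more abundant tag. *Tpi1* and *Hk2* were read almost wholly from tags with thymine first, which went from 173 to 3893 TPM and from 33.9 to 219 TPM.

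*Ldha*, *Pgk1* and *Gpi1* were also higher in the null in tags that start with another base, though single tag types were not tested. The *Ldha* tag, with cytosine first, went from 2011 TPM in the AVC to 6001 in the null, and the *Pgk1* tag, with guanine first, from 1008 to 5479 TPM. *Gpi1* was higher in both of the main tags that it alone holds, which went from 78.2 to 627 TPM in one with thymine first and from 40.7 to 174 TPM in one with guanine first. Smaller tags of these genes went the other way, such as a second *Ldha* tag with adenine first (58.6 to 30.7 TPM), a *Gpi1* tag with guanine first (8.72 to 2.16 TPM) and 3 *Pgk1* tags with guanine first, each under 3 TPM. In *Pkm*, which was not called, the main tag, with cytosine first, went from 788 to 1521 TPM and a second, in the coding part, from 36.05 to 251 TPM, while another in exon 5 went from 25.3 to 4.32 TPM.

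With all tags that start with thymine left out, and library totals lowered to match, 6 members were higher in the null and 5 lower, where 11.2% and 13.3% of all 11618 genes were. The 6 were *Adpgk*, *Gpi1*, *Pfkfb3*, *Pgk1*, *Eno2* and *Ldha*, and each of them had been called higher with all tags. *Pgk1* was then 6.89-fold higher (exact p = 0.000279), *Gpi1* 4.15-fold (exact p = 0.00623) and *Ldha* 3.72-fold (exact p = 0.0106). *Tpi1* was left with a ratio of 1.85 (exact p = 0.231), *Hk2* with 1.47 (exact p = 0.4998) and *Pfkp* with 1.31 (exact p = 0.613). The 5 lower were *Eno1*, *Eno3*, *Pfkm*, *Pdha1* and *Pdk1*. *Pdha1*, called higher with all tags, was then lower with a log2 ratio of −1.85 (exact p = 0.0162), and *Pdk1*, not called with all tags, was at 0.335 times (exact p = 0.0333). *Aldoc* had no tag left.

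**Figure D4:**
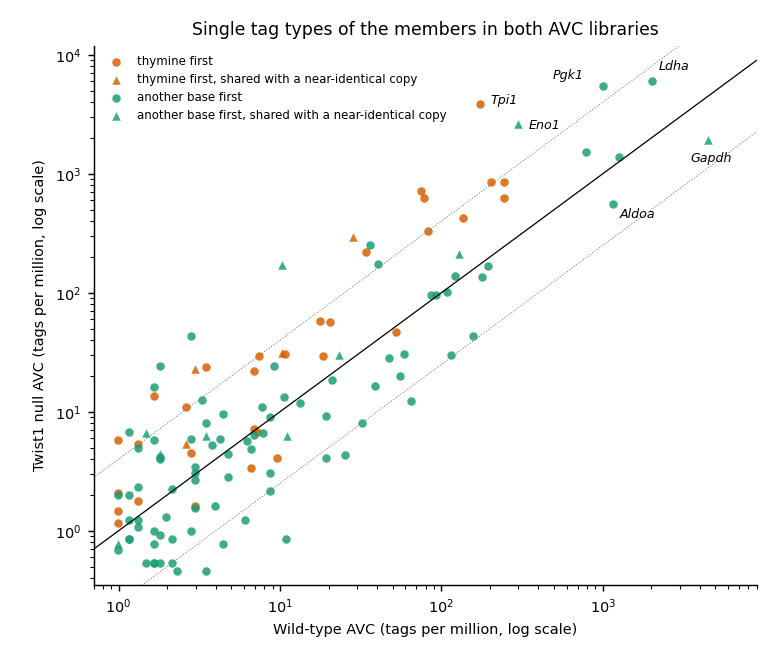
Each point is a tag type of a member with a tag in both AVC libraries, at its level in the wild-type AVC (horizontal) and the Twist1 null AVC (vertical), in TPM on log axes, coloured by whether thymine is the first base after the site; triangles mark tags shared with near-identical copies, the solid line equal levels and the dotted lines 4-fold differences. Most orange points lie above the line, while Ldha and Pgk1 are green points above it and Aldoa and Gapdh green points below it.

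Tag sites close to the transcript end also had higher ratios in the null. Among tag types without thymine first the median log2 ratio was −0.19 within 100 bases of the end (1325 tag types) and −0.84 farther away (5664 tag types). The *Ldha*, *Pgk1* and shared *Eno1* tags lie 27, 83 and 35 bases from the end, and their log2 ratios were 1.58, 2.44 and 3.15. The part of tag position in these ratios was not tested.

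Cell type markers differed by list in this comparison, where 11.9% of all genes were called higher and 12.7% lower. The summed level of 10 erythroid markers was 2432 TPM in the AVC and 27394 TPM in the *Twist1* null AVC, with 6 of the 10 called higher and none lower. The most abundant in the null was *Hbb-y*, an embryonic beta globin, at 15446 TPM. In the AVC it was at 598 TPM, where it was not the highest. Of the 10 only *Slc4a1* was at 0 in the AVC and none in the null. The 10 cushion mesenchyme markers summed to 2792 and 738 TPM, with 6 called lower. The most abundant in the AVC, though not in the null, was *Col3a1* at 1439 and 207 TPM. The 10 cardiomyocyte markers summed to 21548 and 19870 TPM, with only *Myh6* called, as lower, and the most abundant, *Actc1*, was at 6283 and 8933 TPM. The 10 endothelial markers summed to 599 and 650 TPM, with 1 called higher and 1 lower. The 6 epicardial markers summed to 270 and 176 TPM, with only *Tcf21* called, as lower. *Npr3* and *Tcf21* were the most abundant of these lists over the 5 libraries together, but not in either AVC library. None of the mesenchyme, cardiomyocyte or epicardial markers was at 0 in either library, and of the endothelial markers only *Emcn* was, in the AVC. In pooled tissue, fewer cells of a type and less RNA per cell cannot be told apart. With the haemoglobin tags taken out of the library totals, 13 members were higher and 3 lower, with 12.8% and 12.2% of all genes. The part of erythroid or mesenchymal RNA in the member ratios was not tested.

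Of 22 other glycolysis and pyruvate genes 3 were higher in the null and 1 lower, with a median log2 ratio of −0.21, near the values over all genes (11.9% higher, 12.7% lower, median −0.23). *Pfkfb4*, another kinase that makes fructose-2,6-bisphosphate, was at 0 in the AVC and 3.16 TPM in the null, and *Slc16a7*, a further monocarboxylate transporter, at 0 and 1.16 TPM. In the AVC a tag type under 0.988 TPM was not listed, and 5 unlisted tags would be 0.823 TPM. The *Slc16a7* call thus depends on the listing limit. *Slc2a12*, a glucose transporter, was at 3.13 and 12.6 TPM. *Bpgm*, which makes the 2,3-bisphosphoglycerate of red cells, was lower, at 12.5 and 4.08 TPM. *Bsg*, the partner that carries MCT1 and MCT4 to the membrane, was at 658 and 629 TPM, and *Mpc1* and *Mpc2*, the mitochondrial pyruvate carrier, at 24.5 and 46.0 TPM and at 70.6 and 30.7 TPM, with no call for these 3.

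Beside the same shares over all genes, of 9 genes of the malate-aspartate and glycerol phosphate shuttles 2 were higher, *Got2* (27.2 and 151 TPM) and *Slc25a12* (14.6 and 40.8 TPM), and none lower, but their median was −0.52. Of 16 citric acid cycle genes *Idh3b* was higher (19.8 and 123 TPM) and *Sdhc* (258 and 48.1 TPM) and *Fh1* (93.5 and 15.6 TPM) were lower, with a median of 0.15. Of 7 pentose phosphate genes none was higher and *H6pd* was lower (6.75 and 0.925 TPM). Of 8 glycogen genes *Gyg*, the primer of glycogen synthesis, was higher (428 and 1560 TPM) and *Gbe1*, the branching enzyme, lower (27.0 and 3.24 TPM).

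The list of oxygen sensing and HIF genes had 4 of 18 higher and none lower, with a median log2 ratio of 0.95, beside 11.9%, 12.7% and −0.23 over all genes. *Ankrd37*, a known HIF target, was at 2.96 TPM in the AVC and 53.5 TPM in the null (exact p = 1.10e-06). *Arnt*, which encodes the HIF-1 beta subunit, was at 10.5 and 36.2 TPM. *Ddit4* was at 8.72 and 28.6 TPM and *P4ha2*, a collagen prolyl hydroxylase, at 60.2 and 185 TPM. With tags that start with thymine left out, 6 of the 18 were higher and none lower, where 11.2% and 13.3% of all genes were. Counts without such tags are not given for the other lists of further genes, so the lists are not compared on this point.

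The second question was how the members were spread over the wild-type heart. Against the summed atria and ventricles, 17 of 36 members were higher in the AVC and 3 lower, where 43.4% of all 12503 genes were higher and 8.12% lower. The share of members higher is thus near the background, and the median log2 ratio of the members, 0.98, was close to the 0.99 of all genes. After TMM normalization, which moved the median of all genes to 0.08, 11 members were higher and 6 lower, with 26.2% and 16.9% of all genes. In the OFT, 15 of 35 members were higher and 3 lower than in the chambers, with 40.6% and 8.88% of 12451 genes, and after TMM normalization 10 and 7 were, with 26.6% and 17.0% of genes. Both comparisons share the chamber libraries. Over all genes, 84.2% of calls in the AVC and 82.1% in the OFT were in the higher direction, against 60.8% and 61.0% after TMM normalization.

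The members lower in both cushion regions were *Tpi1*, *Pgk1* and *Ldha*. In the AVC they were at 0.132 (0.124 to 0.140), 0.203 (0.198 to 0.208) and 0.320 (0.314 to 0.326) times their level in the chambers, with exact p of 0.000151, 0.00222 and 0.0255. In the OFT they were at 0.177, 0.215 and 0.318 times, with exact p of 0.000986, 0.00308 and 0.0248. Against the atria alone *Ldha* was not called, with a log2 ratio of −1.17 in the AVC (exact p = 0.108) and −1.18 in the OFT (exact p = 0.105). *Pgk1* and *Ldha* were lower also with tags that start with thymine left out, at 0.168 and 0.267 times in the AVC, whereas *Tpi1* was then at 1.52 times in the AVC and 1.93 times in the OFT, with no call. With the tags shared with *Eno1b* counted, *Eno1* was lower too, at 0.115 times in the AVC (exact p = 6.17e-05) and 0.141 times in the OFT (exact p = 0.000230).

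Among members with tags on both sides, *Slc16a3* had the highest ratio, at 42.4-fold in the AVC (25.4 to 76.5) and 59.1-fold in the OFT (35.5 to 106). *Gapdh*, from its own tags, came next at 27.5-fold and 19.1-fold. With the shared tags *Gapdh* was at 1.31 and 0.972 times with no call. *Hk2* followed at 15.2-fold (9.90 to 24.5) and 18.7-fold (12.2 to 30.1). *Slc2a4*, *Pfkfb2*, *Aldoc* and *Eno2* had tags in the AVC and the OFT and none in either chamber. They are among the members called higher in both regions, but the test counted unlisted tags as absent. With 5 tags assumed for each missing tag type the AVC was at least 1.98-fold, 3.88-fold, 6.15-fold and 1.98-fold higher for these genes, and for the OFT the bounds were 2.87-fold, 1.35-fold, 2.19-fold and 1.77-fold. *Eno1*, by its own tags, was not found in the OFT or the chambers, and its bound for the AVC was 1.90-fold.

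**Figure D5:**
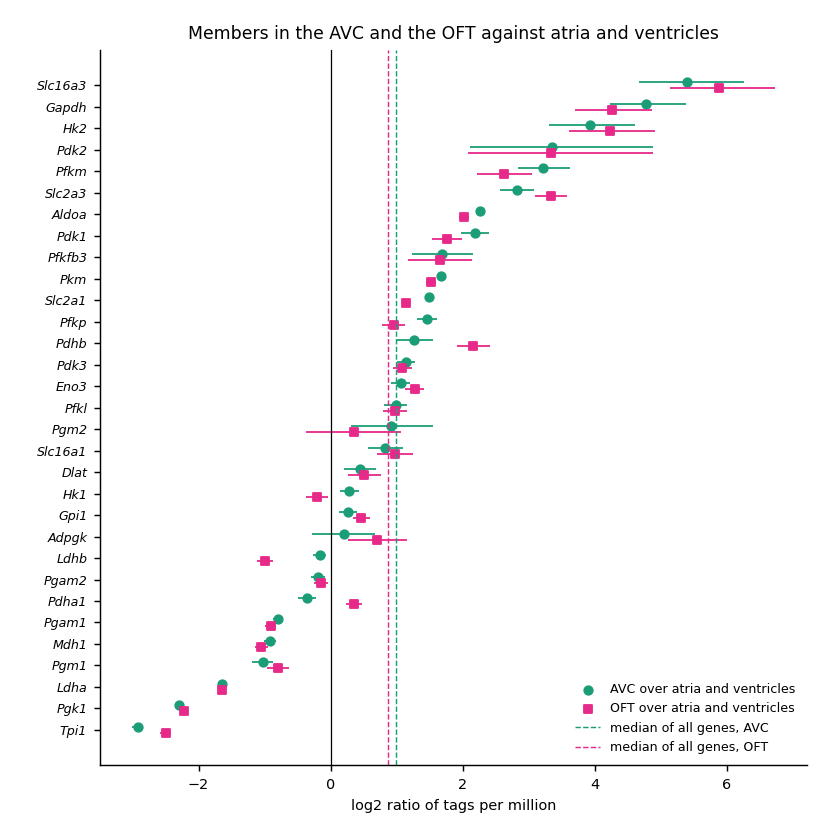
Log2 ratio of the AVC (green circles) and the OFT (pink squares) to the summed atria and ventricles for the 31 members with tags on both sides, with 95% counting intervals; dashed lines mark the medians of all genes. Both regions place Slc16a3 at the top (5.41 and 5.88) and Ldha, Pgk1 and Tpi1 at the bottom (Tpi1 at −2.92 and −2.50), and 14 of the 31 members lie within 1 log2 unit of the dashed line in each region.

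The marker lists also differed between these libraries. The erythroid markers summed to 2432 TPM (AVC), 3083 (OFT), 215422 (atria) and 46728 (ventricles), and haemoglobin tags were 0.242%, 0.307%, 21.5% and 4.67% of each library. *Slc4a1* was at 0 in the AVC, *Epor*, *Gata1* and *Klf1* in the OFT, and *Epor* in the ventricles. The cushion mesenchyme markers summed to 2792, 3499, 198 and 203 TPM, with *Prrx1* at 0 in both chambers and *Snai2* in the atria, and the cardiomyocyte markers to 21548, 23826, 8017 and 23352 TPM. The endothelial markers summed to 599, 637, 346 and 420 TPM, with *Emcn* at 0 in the AVC, and the epicardial markers to 270, 89.8, 309 and 262 TPM, with *Wt1* at 0 in the atria. Their part in the member ratios was not tested.

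Between the chambers, 6 of 31 members were higher in the ventricles than in the atria and 1 was lower, where 11.1% and 9.03% of 10705 genes were. The median log2 ratio was 0.72 over the members and 0.31 over all genes. The higher members were *Adpgk* (4.61-fold, exact p = 0.00897), *Pfkfb3* (3.82-fold), *Hk1* (3.28-fold), *Pkm* (3.03-fold), *Pgm1* (2.83-fold) and *Hk2*, which was absent from the atria and at least 5.08-fold higher. All chamber tags of *Hk2*, *Pgm1* and *Pfkfb3* and most of those of *Adpgk* start with thymine. Without such tags the first 3 had no tag in either chamber, and *Adpgk* kept 8 tags in the ventricles and none in the atria. *Hk1* was then 2.90-fold higher (exact p = 0.0389) and *Pkm* was at 2.64 times, with no call (exact p = 0.0564). In all, 5 members were then higher and 1 lower, where 909 and 986 of 8756 genes were, and some of the 5 had not been called with all tags. *Slc16a3* was lower, with 3.21 TPM in the atria and none in the ventricles, at least 1.36-fold. *Slc2a1*, *Slc2a3* and *Slc16a1* were at 0.849, 0.764 and 0.596 times their atrial level, with no call. After TMM normalization *Adpgk* and *Hk2* alone were higher and *Slc16a3* lower, with 9.3% and 9.72% of all genes.

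Between the cushion regions no member was higher in the OFT and 2 of 36 were lower, where 5.22% and 7.35% of 12541 genes were, and the median log2 ratio was −0.02 over the members and −0.08 over all genes. These counts are near the background. *Pfkfb2* was at 0.174 times its AVC level (0.0715 to 0.369, exact p = 0.00716), and *Eno1*, by its own tags, was at least 2.25-fold lower. At the other end *Pdhb* was at 1.86 times (1.60 to 2.16) and *Pdha1* at 1.64 times (1.48 to 1.82), while *Ldhb* was at 0.565 times (0.517 to 0.618) and *Aldoc* at 0.357 times (0.176 to 0.678), with no call for these 4. *Pdha1* was called higher once tags that start with thymine were left out, at 3.27 times its AVC level (exact p = 0.0235). *Slc2a4* was at 1.45 times (0.851 to 2.50). *Ldha* was at 0.994 times (0.969 to 1.02) and *Pgk1* at 1.06 times (1.02 to 1.10).

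*Ldha* and *Pgk1* were both low in the AVC and the OFT and high in the other 3 libraries, so the bases before their transcription starts were searched for the letters ACGTG and GCGTG on both strands (CACGT and CACGC on the reverse), which form the core of the element that HIF binds. Overlapping matches were counted, so that CACGTG holds 2. CACGTG also matches CANNTG, the E-box that the study names as bound by TWIST1 with an E-protein. Binding of either factor was not tested here. The 250 bases before the start are shown, for *Ldha* at the start with more matches, from RefSeq (build GRCm38.p6, plus strand), with matches in capitals.
Ldha, chr7:46845554-46845803: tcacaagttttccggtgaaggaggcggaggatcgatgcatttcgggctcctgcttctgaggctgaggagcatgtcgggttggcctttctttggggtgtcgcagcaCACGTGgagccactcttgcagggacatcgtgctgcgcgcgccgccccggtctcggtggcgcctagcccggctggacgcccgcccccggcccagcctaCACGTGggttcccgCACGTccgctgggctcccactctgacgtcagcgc
Pgk1, chrX:106186850-106187099: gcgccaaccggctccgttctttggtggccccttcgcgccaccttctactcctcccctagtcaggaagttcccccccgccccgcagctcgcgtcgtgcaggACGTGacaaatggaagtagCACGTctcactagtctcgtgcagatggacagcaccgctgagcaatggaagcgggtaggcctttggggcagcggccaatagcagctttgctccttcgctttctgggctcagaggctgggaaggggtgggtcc

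These stretches hold 5 and 2 matches. A second *Ldha* start in the table, with its 250 bases at chr7:46846832-46847081, has 1 match there. Over the full 300 bases of each promoter (250 before and 50 after the start), which the RefSeq table gives for 34 members (not *Slc2a3* or *Slc2a4*), 39 of the 50 promoters held at least 1 match (78.0%), against 43.8% of all 32851 promoters and 60.5% of the 13540 promoters of genes found in a library. *Dlat*, *Eno2*, *Gpi1*, *Pgam2* and *Tpi1* had none in this window. The letters are a description of sequence and were not compared with binding, and differences in base composition between promoters were not taken into account.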

How the data were processed

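The authors deposited counts of reads per tag type, for types seen more than 5 times in a library, and the smallest deposited count is 6. Per the study's methods, reads were processed with ELAND and filtered on quality, tags were mapped to genes with DiscoverySpace, and tissue of several embryos was pooled. Build mm9 is named in the submitters' processing notes.

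Virtual tags were taken at every NlaIII site of 33363 GENCODE M21 transcripts linked to RefSeq, with 20 adenines added at the end. Of 315529 distinct tags 308949 belong to 1 of 24303 genes. Sense tags of 1 gene were summed. They were 70.7, 72.2, 73.6, 74.5 and 73.8% of tags in the AVC, OFT, atria, ventricles and null. No genome sequence was at hand to check uniqueness.

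The 5 comparisons used edgeR 4.0.16 in R 4.3.3 (exactTest, two-sided) over every gene found, with dispersion 0.12 and a call at an unadjusted p under 0.05, both as in the study. Library sizes were the deposited totals, and the study's own scaling inside edgeR may differ. No covariate was used. Ratios against an absent gene are bounds with 5 tags per missing tag type. The tests counted an unlisted tag type as no tag, so calls against an absent gene depend on the listing limit. Intervals on ratios are exact binomial. Alternatives changed scaling (TMM, DESeq2 1.42.0), dispersion, adjustment, filters and the tags used. Tables were made with Python 3.11.15 and pandas 2.3.3, and the test was checked on simulated counts.

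The members and the lists were chosen with earlier results of these data known. Named are all members by level, those called in the null, and the 3 highest and lowest ratios elsewhere. Tags are named for the 8 most abundant members and for members whose tags moved apart. From each list come the 2 genes of smallest p per direction and its top marker over the 5 libraries together. *Slc2a12*, *Ddit4*, *P4ha2*, *Bsg*, *Mpc1* and *Mpc2*, further member ratios and the promoters were added after their values were seen. A second tag of *Slc2a1* is not reported here.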

Additional observations from a re-analysis of the deposited data

How the results depend on the processing

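No paired analysis was possible because each group has 1 library. The count of members called in the null against the AVC (16 in all, with 24.6% of all genes) was 2 at a dispersion of 0.4 (6.26% of genes), 7 after Benjamini-Hochberg adjustment (8.99%), and 10 with tags that start with thymine left out and TMM normalization (7 higher and 3 lower, with 24.8%). At a dispersion of 0.4 it was 11 in place of 20 for the AVC and 8 in place of 18 for the OFT against the chambers, with 23.0% and 22.8% of genes in place of 51.5% and 49.5%. For the ventricles against the atria (7, with 20.1% of genes) it was 3 with TMM, with DESeq2 size factors and with haemoglobin left out of the totals (19.0%, 19.1% and 19.0%), 12 at a dispersion of 0.05 and by a ratio of 2 alone (31.8% and 27.2%), and 2 at a dispersion of 0.4 and after adjustment (8.30% and 6.27%). For the OFT against the AVC (2, with 12.6% of genes) it was 1 at a dispersion of 0.4, with at least 50 tags per gene and with shared copies counted (5.48%, 3.35% and 12.6%), 0 after adjustment of the edgeR p (3.13%), and 4 with thymine-first tags left out, with or without TMM (15.7%).

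Without thymine-first tags the log2 ratio in the null turned to −0.25 for *Pgam1*, −1.85 for *Pdha1* and −1.01 for *Mdh1*, and to −0.015, −1.62 and −0.78 with TMM added. *Mdh1* was at −1.07 with 3′-most sites alone. *Tpi1* turned to 0.61 in the AVC and 0.95 in the OFT against the chambers, and to 0.32 in the OFT with TMM. *Slc2a4* in the OFT against the AVC turned to −0.093, and to −0.0066 with TMM. *Eno1* in the null turned to 3.16 with shared copies counted, and *Gapdh* in the OFT against the chambers to −0.041, and to −0.074 with 3′-most sites alone. Over all genes 48.3% of calls in the null were higher, and 61.4% after TMM. Leaving out thymine-first tags with TMM and counting shared copies were settings chosen after seeing the data. Beyond the tags each setting leaves out, causes were not tested. With 1 library per group the spread between embryos is not measured, and genes of few tags are limited by the listing threshold.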
